A study of Mus musculus and Homo sapiens with 54 samples.

Results

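In HCT116 cells, a human colorectal cancer cell line, 2031 peaks of the histone variant H2A.Z shared at least 1 bp with an interval of histone H2B ubiquitinated at lysine 120 (H2BK120ub1) and lay within 10 kb of an annotated transcription start site (TSS). They were taken from a list of 64048 H2A.Z peaks, a list of 93123 H2BK120ub1 intervals and the TSSs of every GENCODE transcript on hg38, and the 7 peak lists of the series hold 221603 regions in all. These peaks were chosen by the overlap of the 2 lists and by the distance from the peak to a TSS, so neither the overlap nor the nearness is a finding. Within 10 kb of a TSS, 35061 H2A.Z peaks were listed and 33030 of them shared no base with H2BK120ub1. The peaks that shared bases were therefore 5.79% of those near a TSS, against 3.19% of the whole H2A.Z list.

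The series has 54 samples, of which 10 are from HCT116. Total chromatin of HCT116 cells given no inhibitor was immunoprecipitated for H2A.Z in 2 samples and for H2BK120ub1 in 2, with 2 input samples. Per the methods, cells were labelled for 10 min with 10 µM EdU, which marks newly made DNA. The paper's control for the inhibitor was DMSO. Another 2 H2BK120ub1 samples and 2 inputs came from cells given 10 µM triptolide, an inhibitor of transcription initiation, for 20 min, and the sources used here do not say which H2BK120ub1 samples entered the list. Each list is a merge over replicates that gives the start and end of a region with no score, so no value below has a replicate error, no test between groups of peaks was made, and the lists give no read depth. HCT116 is a single cell line, and a peak list records where a signal passed the caller's threshold, not how strong it was.

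H2A.Z is a variant of histone H2A that is exchanged into nucleosomes by the SRCAP and EP400 complexes and is best known at the nucleosomes on either side of active and poised promoters. H2BK120ub1 is placed by the RNF20 and RNF40 ubiquitin ligase together with the conjugating enzymes UBE2A and UBE2B while RNA polymerase II elongates, with help from the PAF1 complex, so that it lies over the bodies of transcribed genes. The peaks described here are where the regions called for a promoter variant and for a gene body modification met.

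The stretch where both lists met is shown for 7 genes whose roles bear on the marks, on DNA replication or on ribosomal proteins. Of the genes of the lists described below with 20 to 200 shared bases at a single end of the H2A.Z peak and no UTR base among them, these are the 7 whose shared stretch began nearest to the TSS. They were read from hg38 on the strand of the gene and 5′ to 3′. Capitals mark the bases that both lists held, and lower case letters the bases around them. At these 7 genes the printed 200 bases lay in the first intron of the canonical transcript, which the absence of UTR bases favours, and no shared base was coding. The 29 shared bases at CDC73 also lay in an exon of another annotated transcript.

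RFC1, the large subunit of the clamp loader replication factor C, is on the minus strand (chr4:39365992-39366191), and its shared stretch began 175 bp after the TSS. RTF1, a partner of the PAF1 complex that promotes H2B ubiquitination, is on the plus strand (chr15:41417330-41417529), with 236 bp from the TSS to the shared stretch. MCM3, a subunit of the replicative helicase, is on the minus strand (chr6:52284303-52284502), with 273 bp. USP49, a deubiquitinase of H2B, is on the minus strand (chr6:41894781-41894980), with 429 bp. RPL7L1, a relative of the ribosomal protein RPL7, is on the plus strand (chr6:42879995-42880194), with 448 bp. CHAF1B, a subunit of the histone chaperone CAF-1, is on the plus strand (chr21:36385836-36386035), with 457 bp. CDC73, a subunit of the PAF1 complex, is on the plus strand (chr1:193122434-193122633), with 489 bp.
RFC1: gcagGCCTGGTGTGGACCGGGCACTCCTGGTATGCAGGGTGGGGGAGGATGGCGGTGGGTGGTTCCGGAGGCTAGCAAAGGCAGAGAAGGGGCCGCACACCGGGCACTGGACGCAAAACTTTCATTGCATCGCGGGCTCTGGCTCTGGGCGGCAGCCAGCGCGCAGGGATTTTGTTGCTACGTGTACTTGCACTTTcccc
RTF1: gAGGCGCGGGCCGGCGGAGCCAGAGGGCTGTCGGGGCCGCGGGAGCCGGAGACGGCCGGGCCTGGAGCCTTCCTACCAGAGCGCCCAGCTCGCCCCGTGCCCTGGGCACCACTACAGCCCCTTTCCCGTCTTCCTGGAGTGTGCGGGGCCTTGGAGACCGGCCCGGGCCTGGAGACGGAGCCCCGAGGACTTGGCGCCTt
MCM3: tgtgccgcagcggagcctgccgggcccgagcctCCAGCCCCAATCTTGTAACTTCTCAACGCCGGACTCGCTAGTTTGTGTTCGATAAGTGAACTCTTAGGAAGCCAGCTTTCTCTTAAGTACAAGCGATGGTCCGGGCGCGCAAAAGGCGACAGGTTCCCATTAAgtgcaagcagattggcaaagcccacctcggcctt
USP49: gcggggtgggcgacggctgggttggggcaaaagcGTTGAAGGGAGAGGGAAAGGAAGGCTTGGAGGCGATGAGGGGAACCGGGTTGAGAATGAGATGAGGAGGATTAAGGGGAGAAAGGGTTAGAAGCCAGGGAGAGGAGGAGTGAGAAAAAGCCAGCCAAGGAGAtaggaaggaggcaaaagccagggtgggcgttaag
RPL7L1: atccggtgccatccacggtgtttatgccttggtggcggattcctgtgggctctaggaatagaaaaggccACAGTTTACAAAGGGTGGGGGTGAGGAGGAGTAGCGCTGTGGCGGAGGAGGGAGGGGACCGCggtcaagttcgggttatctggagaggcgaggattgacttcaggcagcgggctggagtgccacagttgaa
CHAF1B: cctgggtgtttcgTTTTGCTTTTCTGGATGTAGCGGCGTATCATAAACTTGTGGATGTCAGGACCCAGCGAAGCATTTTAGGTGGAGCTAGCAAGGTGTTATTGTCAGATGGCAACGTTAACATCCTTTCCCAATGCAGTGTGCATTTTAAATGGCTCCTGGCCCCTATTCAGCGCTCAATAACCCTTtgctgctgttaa
CDC73: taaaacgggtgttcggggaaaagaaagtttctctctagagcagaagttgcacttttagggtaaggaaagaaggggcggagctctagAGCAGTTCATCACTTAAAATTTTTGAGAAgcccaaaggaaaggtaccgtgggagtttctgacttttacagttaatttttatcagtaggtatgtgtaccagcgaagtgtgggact
The shared stretches differed in base composition. G and C made up 75.3% of the 198 shared bases at RTF1, but 27.6% of the 29 at CDC73 and 45.7% of the 175 at CHAF1B.

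The peaks that shared bases lay almost without exception on the start of a protein-coding gene. An annotated TSS was inside 2005 of the 2031 peaks (98.7%), against 10834 of the 33030 H2A.Z peaks near a TSS that shared none (32.8%). A protein-coding TSS was inside 1979 of them (97.4%) and inside 25.1% of the others, and the nearest TSS was that of a long noncoding RNA gene for 28 (1.38%), against 26.7%, with a protein-coding TSS taken first where a peak held several. Exons were touched by 99.2% of the peaks, coding sequence by 70.1%, an annotated UTR by 97.2% and a protein-coding gene body by 98.7%. In the H2A.Z peaks that shared no base these values were 43.3%, 20.2%, 27.2% and 48.8%. A TSS is the first base of an exon and of a gene, so a peak with a TSS inside touches both by definition. The exon and gene body values therefore follow in part from the TSS shares above. They were not split by whether a TSS was inside the peak.

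Sharing fell off at the first step away from the TSS. Of the 12839 H2A.Z peaks with a TSS inside, 15.6% shared bases. Of the 2960 peaks whose edge lay up to 1 kb from a TSS 13 did so (0.439%), of the 3021 from 1 to 2 kb 3 (0.0993%), of the 7362 from 2 to 5 kb 5, and of the 8879 from 5 to 10 kb 5 (0.0563%). At greater distances 12 further H2A.Z peaks shared bases, between 10243 and 62972 bp from a TSS.

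**Figure D1:**
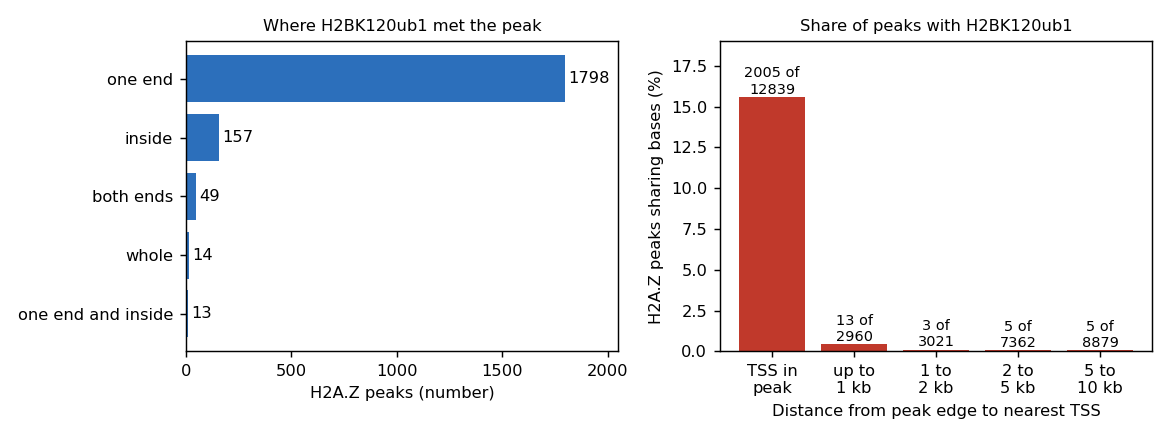
Left, the number of H2A.Z peaks near a TSS by where an H2BK120ub1 interval met them, at one end, inside, at both ends, over the whole peak, or at one end and inside. Right, the percentage of H2A.Z peaks that shared bases by distance from the peak edge to the nearest TSS, with the counts above the bars, which falls from 15.6% with a TSS in the peak to 0.0563% at 5 to 10 kb.

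The marks met edge to edge. In 1798 of the 2031 peaks (88.5%) the H2BK120ub1 interval ran over one end of the H2A.Z peak, and in 49 (2.41%) an interval ran over each end. In 157 peaks (7.73%) an interval lay inside the H2A.Z peak, in 13 one lay inside and another over an end, and 14 peaks (0.689%) were covered whole. A single interval met 1969 peaks and 2 intervals met 62. The number of bases shared had a median of 250 bp (quartiles 139 and 397.5, from 2 to 2090), which was 17.6% of the H2A.Z peak at the median (quartiles 9.37 and 29.2%). At most 10 bp were shared in 37 peaks (1.82%), at most 100 bp in 341 (16.8%) and more than 1 kb in 22.

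The H2BK120ub1 intervals that met H2A.Z were wide. There were 2091 of them, 2.25% of the intervals on the chromosomes, and their width was 4064 bp at the median (quartiles 969.5 and 11014.5) against 605 bp (301 and 1567) for the other 91016. Of the intervals that met H2A.Z 27.5% were over 10 kb, and of the others 2.74%. A wide interval has more bases with which to meet a peak, so the widths are not independent of the choice. Intervals inside an H2A.Z peak can be no wider than the peak, and had a median of 255 bp (quartiles 173 and 353), and 45.2% of them were under 250 bp wide. In the H2BK120ub1 list as a whole 15.4% of intervals were under 250 bp, while the narrowest H2A.Z peak was 252 bp. The narrowest interval of that list was 1 bp, and the narrowest inside an H2A.Z peak was 9 bp. At 113 of the peaks that shared bases (5.56%) the widest interval met was under 250 bp.

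The shared end faced into the gene. Of the 1798 peaks met at one end, 1762 contained a protein-coding TSS. In the 1495 of these whose protein-coding TSSs were all on a single strand, the shared end was downstream of the nearest TSS in 1473 (98.5%) and upstream in 22, and 13 of the 22 had the TSS of a noncoding gene for which the end was downstream. The other 267 contained protein-coding TSSs on both strands, and each of their ends is downstream of some TSS by construction. The shared end was downstream of the TSS nearest to the peak midpoint in 143 of the 267 (53.6%). At 184 of these 267 peaks the canonical TSS of the gene pointing the other way was also in the peak, and 125 of those genes (67.9%) carried an H2BK120ub1 interval in the body, which is close to the 67.2% of all 9144 protein-coding genes with H2A.Z on the canonical TSS that did.

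Peaks met at both ends mostly contained protein-coding TSSs on both strands, and whether these pointed apart was not checked. Protein-coding TSSs on both strands were in 39 of the 48 peaks of this class that contained such a TSS (81.2%). The corresponding share was 15.2% of the 1762 met at one end, 16.6% of all 1979 peaks that shared bases and contained a protein-coding TSS, and 8.35% of the 8283 that contained one and shared no base. Of 146 peaks with an interval inside and a protein-coding TSS, the interval lay downstream of the TSS in 107 (73.3%), over it in 26 and upstream in 13, and it began 161.5 bp after the TSS at the median.

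The boundary was measured at the canonical TSS of each protein-coding gene, 1 per gene. Of 19970 genes, 9144 (45.8%) had an H2A.Z peak over this TSS and 9481 had an H2BK120ub1 interval in the transcript. The H2A.Z peak shared bases with H2BK120ub1 at 2213 genes, over 1901 peaks, which is 24.2% of the genes with H2A.Z at the TSS and 11.1% of all genes. At 73 of the 2213 the gene's own transcript held no interval, and the interval that met the peak lay outside it. In the other 2140, the first interval began a median of 290.5 bp after the TSS (quartiles 164 and 497.25), within the H2A.Z peak in 1994 (93.2%), past the end of the first exon in 1398 (65.3%) and at or before the TSS in 42 (1.96%). The H2A.Z peak at the 2213 genes reached 567 bp downstream of the TSS (quartiles 426 and 757) and 773 bp upstream (573 and 1105).

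Genes with H2A.Z on the TSS were also grouped by how far beyond the H2A.Z edge the first interval began. At the 1059 genes where the first interval began up to 500 bp beyond the H2A.Z edge, that edge lay 551 bp after the TSS and the interval began at 800 bp. With a gap over 500 and up to 2000 bp (1348 genes) these medians were 643 and 1724 bp, with a gap over 2000 and up to 10000 bp (968 genes) 734 and 4650 bp, and with a gap over 10 kb (632 genes) 843 and 24562 bp. At the 2924 genes with H2A.Z at the TSS and no interval, the H2A.Z edge lay at 738 bp. The median position of the H2A.Z edge thus ranged from 551 to 843 bp over these groups, while the start of H2BK120ub1 differs between them by construction. The profile around the TSS, taken every 50 bp, gives the same positions, and at these genes the crossing of the marks follows from how they were chosen. At the genes where the marks met, 96.7% were covered by H2A.Z and 40.8% by H2BK120ub1 at 250 bp after the TSS, 60.9% and 70.0% at 500 bp, and 9.81% and 75.7% at 1000 bp.

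**Figure D2:**
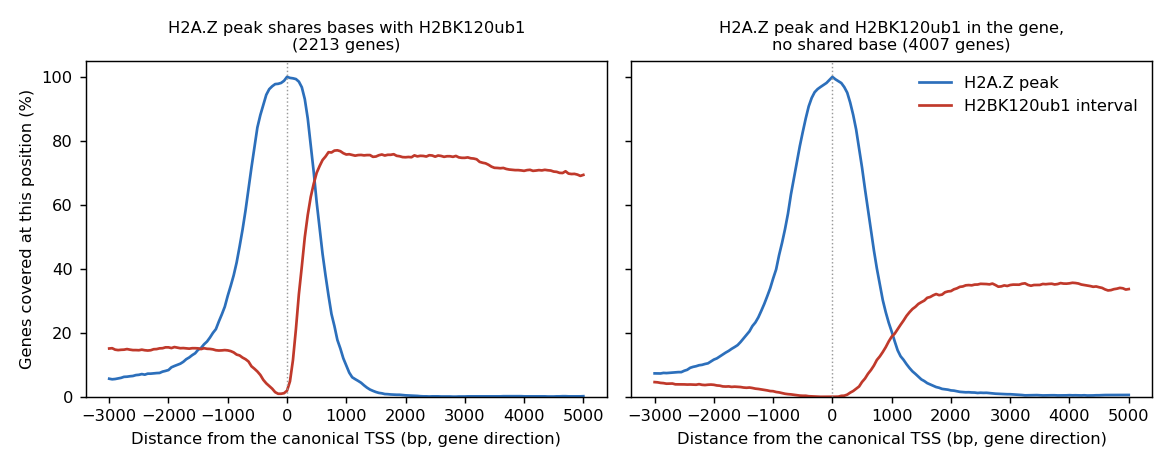
Percentage of genes covered by an H2A.Z peak (blue) and by an H2BK120ub1 interval (red) at each distance from the canonical TSS, in the direction of the gene, at 2213 genes whose H2A.Z peak shared bases (left) and at 4007 genes that had both marks without a shared base (right). The red line crosses the blue between 250 and 500 bp after the TSS on the left, and near 1000 bp on the right.

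**Figure D3:**
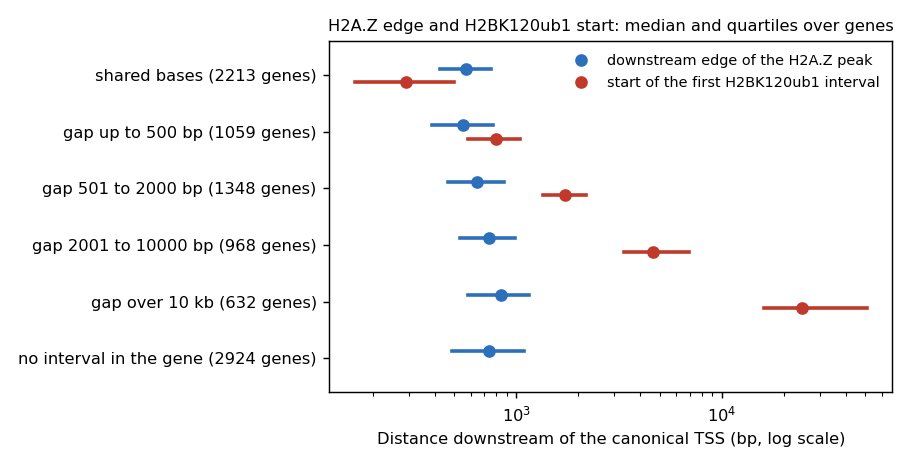
Median (points) and quartiles (lines) over genes of the downstream edge of the H2A.Z peak (blue) and the start of the first H2BK120ub1 interval in the gene (red), in bp after the canonical TSS on a log scale, by the gap between them. Red values of the top group are over the 2140 genes with an interval of their own, and the blue medians stay between 551 and 843 bp.

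The genes whose H2A.Z peak met H2BK120ub1 carried it over much of their length. H2BK120ub1 covered 56.2% of the transcript at the median (quartiles 27.2 and 80.3%), against 42.1% with a gap up to 500 bp and 1.71% with a gap over 10 kb. Among genes with H2A.Z at the TSS, the share whose peak met H2BK120ub1 was 8.62% where up to 5% of the gene was covered, 32.6% at 20 to 40% and 76.8% at 80 to 100% (560 of 729 genes). A gene covered from end to end has an interval near its TSS, so part of this rise is built into the measure. H2A.Z was on the TSS of 28.6% of the 10489 genes without an interval, of 73.2% of the 1616 covered by up to 5% and of 43.7% of the 1668 covered by 80 to 100%. By gene length, peaks met H2BK120ub1 at 20.5% of the genes up to 3 kb and 18.9% of those of 3 to 10 kb. The share was 26.3% at 10 to 50 kb, 27.7% at 50 to 100 kb and 20.7% over 100 kb.

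The H2A.Z peaks that met H2BK120ub1 were of middle width. Their median was 1392 bp (quartiles 1079.5 and 1861, from 294 to 7311), against 1185 bp (760 and 1800) for the others near a TSS. With a protein-coding TSS inside, the order turned, with 1398 bp for the 1979 peaks that shared bases and 1577 bp for the 8283 that did not. Of peaks with such a TSS, 14.4% of those up to 500 bp shared bases, 25% of those from 1000 to 1500 bp and 9.63% of those over 3000 bp.

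**Figure D4:**
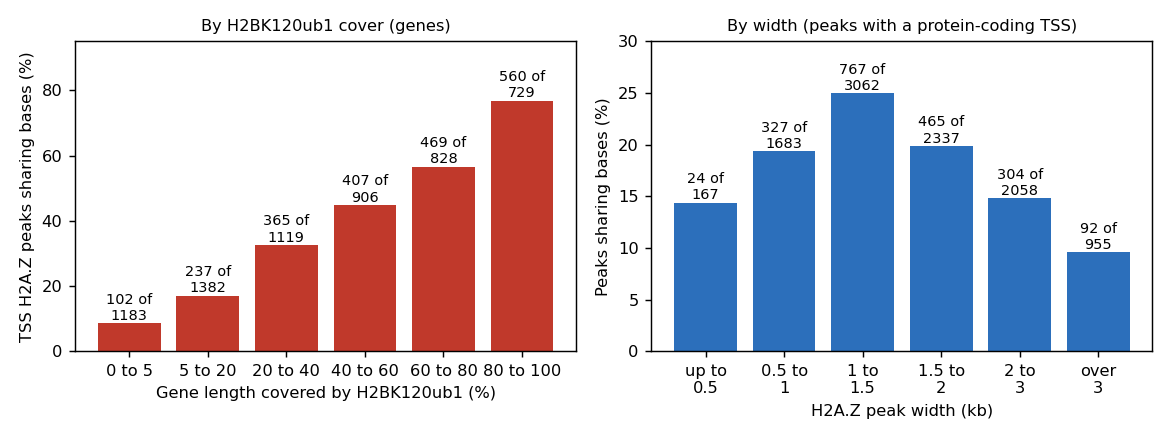
Left, percentage of genes with an H2A.Z peak on the canonical TSS whose peak shared bases, by the percentage of the gene that H2BK120ub1 covered, rising from 8.62 to 76.8%. Right, percentage of H2A.Z peaks with a protein-coding TSS that shared bases, by peak width in kb, highest at 25% between 1 and 1.5 kb; counts stand above the bars.

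The shared bases themselves lay inside genes and largely in introns. Of 588906 shared bases, 97.4% were in a protein-coding gene, 38.7% in an annotated exon, 19.3% in a UTR and 13.6% in coding sequence, where exons of every transcript were counted. In 738 of the 2031 peaks (36.3%) the shared stretch was in a protein-coding gene and touched no exon, and in 678 (33.4%) it touched coding sequence.

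The sequence at the peaks was rich in CpG. In the 300 bases around the midpoint, G and C made up 66.3% at the median in the 1979 peaks that shared bases and contained a protein-coding TSS, and the ratio of observed to expected CpG was 0.857. In the 8283 peaks with a protein-coding TSS that shared no base the values were 64.0% and 0.737, and in the 22196 H2A.Z peaks near but not on a TSS that shared none, 47.0% and 0.199. The ratio was at least 0.6 in 86.7%, 64.7% and 4.70% of these groups. Within the 1470 peaks met at one end with at least 100 bases on each side of the boundary, the shared part held 65.3% G and C at the median and the rest of the peak 60.3%, and the shared part held the lower share in 34.8%. The CpG ratio went the other way, with 0.755 in the shared part and 0.790 in the rest.

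Short motifs were counted in the same 300 bases on both strands, as a description of letters and not of binding. The GC box (GGGCGG) was in 65.5% of the peaks that shared bases and contained a protein-coding TSS, in 56.2% of those that contained one and shared no base, and in 24.2% of all 35061 H2A.Z peaks near a TSS. An ETS site (CCGGAAG) was in 17.4%, 8.55% and 4.19% of these groups, a CRE (TGACGTCA) in 3.13%, 0.966% and 0.582%, an E-box (CACGTG) in 9.15%, 6.48% and 5.42%, and part of the site of the factor NRF1 (GCATGCGC) in 4.75%, 2.37% and 1.17%. The CCAAT box (CCAAT) was in 27.4%, 27% and 32.6%. An AP-1 site (TGANTCA) was in 3.03%, 6.05% and 11.8%, and a TATA box (TATAAA) in 4.70%, 6.16% and 13.0%. The GC content of these groups differed in the same order, and its part in the motif shares was not tested.

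The markers of the tissue of origin and of other cell types served as a check of the label. Of 14 colon epithelial markers, 10 had an H2BK120ub1 interval in the gene, against 0 of 8 blood markers, 2 of 8 neuronal and 1 of 8 mesenchymal markers. Of all 19970 protein-coding genes, 9481 had an interval and 9144 had H2A.Z on the canonical TSS. The count takes any overlap. VIL1, a colon epithelial marker, was covered over 17 bp alone, and GPA33, CDX1, TSPAN8 and LGALS4 of the same list held no interval, while H2BK120ub1 covered 65.7% of the mesenchymal marker COL1A1 and 18.9% of the neuronal marker SYT1. H2A.Z alone did not separate them, being on the canonical TSS at 4, 2, 3 and 4 genes of these lists. Peaks met H2BK120ub1 at 2 of the 14 epithelial markers (14.3%, against 11.1% of all protein-coding genes) and at none of the others, counts too small to tell the lists from all genes. At CDH1, the E-cadherin gene, H2A.Z spanned 1777 bp and shared 528 bp, in 2 intervals, one of them inside the peak. At EPCAM, an epithelial adhesion molecule, the peak of 1293 bp shared 125 bp. The keratin genes KRT8 and KRT18 were covered over 94.6% and 88.0% of their length by H2BK120ub1, but the nearest H2A.Z peaks lay 15711 and 14972 bp from their TSSs.

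Beside the 24.2% of all genes with H2A.Z on the TSS, the lists of genes gave the following counts, which were small. They are descriptions, because the sharing of bases chose the peaks. Of all 19970 protein-coding genes, 9481 had an H2BK120ub1 interval and 9144 (45.8%) had H2A.Z on the canonical TSS. A list of 18 genes was drawn up around H2B ubiquitination, and not all of them act on H2B itself. Of these, 17 had an H2BK120ub1 interval, 12 had H2A.Z on the TSS and 7 of the 12 shared bases. UBE2B, the conjugating enzyme, shared 203 of 712 bp, and WAC, the adaptor that ties RNF20 and RNF40 to the polymerase, 630 of 1706 bp in an interval of 88490 bp. The PAF1 complex members CTR9, CDC73 and its partner RTF1 shared 306, 29 and 198 bp. SUPT16H, a subunit of the histone chaperone FACT, shared 18 bp, and the deubiquitinase USP49 shared 132 bp. The ligase genes themselves were not among them. RNF20 had H2A.Z on the TSS and H2BK120ub1 from 1658 bp on, beyond the H2A.Z edge at 527 bp, and the nearest H2A.Z peak to RNF40 lay 183 bp from its TSS.

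All 16 genes that deposit, remove or encode H2A.Z carried an H2BK120ub1 interval, 12 had H2A.Z on the TSS and 4 of the 12 shared bases. These were TRRAP and EP400, subunits of the TIP60 and EP400 complex, with 436 and 344 bp, H2AZ2, one of the genes that encode H2A.Z, with 282 bp, and the H2A.Z chaperone ANP32E with 95 bp of a peak of 3794 bp. The nearest H2A.Z peak to the other H2A.Z gene, H2AZ1, was 204 bp from the TSS and H2BK120ub1 covered 35.3% of the gene.

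Genes of DNA replication, 20 in the list, all carried H2BK120ub1, and 6 of the 12 with H2A.Z on the TSS shared bases. The helicase subunits MCM6, MCM4 and MCM3 shared 462, 233 and 133 bp, RFC1 shared 192 bp, and CHAF1A and CHAF1B, subunits of CAF-1, shared 237 and 175 bp. The peak at CHAF1A was 433 bp wide, so that more of it was shared than at CHAF1B with 1391 bp. PCNA and MCM7, covered by H2BK120ub1 over 88.5% and 99.8% of their length, had no H2A.Z peak within 5 kb of the TSS.

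Of 24 genes of Wnt signalling and colorectal cancer, 18 carried H2BK120ub1, 15 had H2A.Z on the TSS and 5 of the 15 shared bases. CTNNB1, the gene of β-catenin, was the fullest, with an interval of 43305 bp that began 49 bp after the TSS, covered 99.9% of the gene and ran over 658 bp of an H2A.Z peak of 2034 bp. At SMAD4 72 bp were shared and at BRAF 4 bp. APC shared none, its H2A.Z edge lying at 426 bp and its H2BK120ub1 starting at 655 bp, while AXIN2 and LGR5 had H2A.Z on the TSS and no H2BK120ub1 in the gene.

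Immediate early and stress genes carried H2BK120ub1 without H2A.Z on the start. H2BK120ub1 was in 22 of the 25, H2A.Z was on the canonical TSS of none and within 1 kb of 8. At MYC, FOSB and EGR2 the nearest H2A.Z peak lay 57, 12 and 110 bp from the TSS, and H2BK120ub1 covered 85.2%, 98.4% and 90.1% of the gene. The single peak of the list that shared bases lay 948 bp from a TSS of FOS, upstream, with an interval of 149 bp inside its 1202 bp. IER3, HSPA1A and HSPA1B lay in a stretch of chromosome 6 with no region of either list within 500 kb, which cannot be read as absence of the marks. Ribosomal protein genes were similar, with H2BK120ub1 in 72 of 80, H2A.Z on the TSS of 6 and within 1 kb of 29. Bases were shared at 2, RPL7 and its relative RPL7L1. RPL10L of this list, on chromosome 14, also had no region of either list within 500 kb, and the same limit holds for it. Of the 69 replication-dependent histone genes 2 had an interval, 1 had H2A.Z on the TSS and 0 shared bases. The authors kept uniquely mapping reads alone. The part of this at the histone genes, and of their short length, was not tested.

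The peaks at the extremes were as follows. The widest were at MARCKS (7311 bp), APBB2 (6981 bp), ZFHX4 (6858 bp), CITED2 (6481 bp) and COL12A1 (6473 bp), and shared between 335 and 958 bp. At ZFHX4, CITED2 and COL12A1 the interval lay inside the peak. The most bases were shared at RND3, a small GTPase, whose peak of 2090 bp was covered whole. MKI67, the gene of the proliferation marker Ki-67, shared 1572 bp of 3881 bp and BCL6, a transcriptional repressor, 1569 bp of 4118 bp in 2 intervals. ENDOV and NRF1, which encode an endonuclease and a transcription factor, were covered whole over 1378 and 1358 bp. Of the narrowest peaks covered whole, RPF2 had 356 bp, LATS2 558 bp, ARC 596 bp and COPA 642 bp, with the lncRNA gene ENSG00000260253 at 605 bp. Of the 14 peaks covered whole, 10 contained a protein-coding TSS, and 4 of the 10 had such TSSs on both strands (COPA, MRPL43, ATP5MK and BUD23).

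Peaks were seldom repeated in a gene. The 2031 peaks were nearest to 2013 genes, and 18 genes were nearest to 2 peaks each and none to more. At several of these the peaks lay on alternative starts of the gene, with a TSS inside each, as at PFKFB3, which encodes an enzyme that controls glycolysis (543 and 343 bp shared), MCMBP, a binding partner of the MCM proteins (763 and 332 bp), EIF3E, a subunit of a translation initiation factor (499 and 283 bp) and RUBCN, a regulator of autophagy (254 and 652 bp). At the peaks of MCMBP, EIF3E and RUBCN that shared 332, 283 and 652 bp, the shared end was upstream of these genes. Those peaks also contained a protein-coding TSS on the opposite strand. At BCL2L11, the gene of the apoptosis activator BIM, a peak of 1894 bp shared 617 bp and a second of 886 bp was covered whole. At ARC, an immediate early gene of neurons that was not in the list above, the peak of 596 bp was covered whole and one of 1351 bp shared 18 bp.

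Away from TSSs there were 26 peaks, and 5 were more than 5 kb away, among them those nearest to EPHB3 (143 bp shared at both ends, 6904 bp from the TSS) and PPP2R2C (434 bp inside, 6178 bp). Nearer ones included KDM2B (460 bp shared, 2302 bp from the TSS) and FOXC1, where 971 of 1119 bp were shared and every base was coding. At ELL2, which encodes an elongation factor, 929 of 940 bp were shared, 51 bp from the TSS.

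At the limits of the choice, the fewest shared bases were 2 bp, at MRPS6, POLB and TRIM2, and 3 bp at VIPAS39 and LINC02086. Just outside, an H2BK120ub1 interval adjoined the peaks of ZMYM4, PON2 and CPSF4 with no base between, and 1 bp lay between at ZNF562 and PPP5C, and 266 of the 8283 peaks with a protein-coding TSS that shared none had an interval within 100 bp (3.21%) and 1188 within 500 bp (14.3%). Of peaks that shared bases, the farthest inside 10 kb was that of TRIM2 at 7569 bp, and the nearest beyond it lay 10243 bp from the TSS of a lncRNA gene.

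By chromosome, between 4% (chromosome 4) and 8.57% (chromosome 16) of the H2A.Z peaks near a TSS shared bases on the autosomes. On chromosome X it was 0 of 372, and 0 of the 168 with a protein-coding TSS. A bound of 3 peaks in 372 would be 0.806%, but it treats the peaks of a merged list as independent. Both marks were present on X. There, 62 genes had H2A.Z on the TSS and an H2BK120ub1 interval, and the smallest gap between them was 21 bp. The median gap was 3190 bp, against 468 bp over 6085 autosomal genes with those that shared bases included, and the 2080 intervals on X had a median width of 474 bp against 625 bp. The part of the narrower intervals in this was not tested, nor was that of read depth, which the lists do not give. Neither list had a region within 500 kb of 799 of the 19970 genes, 164 of them on chromosome 6, so that those genes could not contribute. The authors kept uniquely mapping reads alone, and the lists name 9 and 11 scaffolds beside the chromosomes. Whether reads from such stretches also matched a scaffold and were dropped was not tested, so these stretches cannot be told apart from stretches without the marks.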

How the data were processed

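Total ChIP-seq of HCT116 cells was analysed from the deposited lists, whose values are positions in bp. Per the methods, the authors trimmed reads (Trim Galore 0.0.6), aligned them to hg38 (Bowtie2 2.4.2), kept unique reads (SAMtools 1.12), removed duplicates (Picard 2.26.10), called broad peaks against pooled inputs (MACS2 2.2.6, q 0.05, broad cutoff 0.1), merged regions within 500 bp and kept those found in all replicates. Merging sets the widths and the smallest gap of 501 bp within each list, and a requirement for all replicates removes weak regions.

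Here overlaps of at least 1 bp, distances from the peak edge to TSSs of GENCODE 44 and cover of genes were computed with pandas 2.3.3 and checked with bedtools 2.31.1 and on simulated intervals. The 14 H2A.Z peaks on scaffolds were left out of TSS distances. Canonical transcripts gave 1 TSS per gene. Named peaks are the 5 widest, the 5 with most shared bases, the 5 narrowest covered whole, genes with 2 peaks, genes of the lists and peaks at the limits. Peaks covered whole on both strands, PCNA, KRT8 and other list genes without shared bases, and the peaks away from TSSs were picked after their values were seen. Members and lists were chosen with earlier results of these data known. Printed sequences leave out chromosome 8. Motif and composition windows were 300 bp at the peak midpoint. The other 5 lists were only counted, and there were 0 other columns of values per sample. The alternatives changed the overlap, the interval width, the H2A.Z peak width, the TSS distance, the TSS set and the chromosomes kept. Some items of the gene lists are not reported here.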

Additional observations from a re-analysis of the deposited data

How the results depend on the processing

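The count, width and position of the peaks were recomputed under 11 alternatives, which gave 54 values. Of these, 43 stayed within 1.5 times the main count, the quartiles of the main width or the 95% Wilson interval of the main share (87.0 to 89.8% for one end, up to 99.7% for 1 kb, 98.1 to 99.1% for gene bodies), and 11 did not. The 43 include the values for autosomes alone. These equal the main values by construction, because none of the peaks lay on chromosome X, so they say nothing about stability. Requiring that at least 50% of the H2A.Z peak be covered left 74 peaks, of which 67.6% were met at one end only, 98.6% lay within 1 kb of a TSS and 94.6% touched a protein-coding gene body, with a median width of 887.5 bp. Leaving out intervals under 250 bp gave 92.0% met at one end only, and leaving out those under 1 kb gave 96.9%, with 99.8% within 1 kb of a TSS. Within 1 kb lay 95% when each gene had a single TSS at its start and 98.0% when distance was taken from the peak midpoint. With TSSs of protein-coding genes alone 99.5% touched a protein-coding gene body. The smaller sets follow from the stricter rules, and the cause of the other shifts was not tested. No paired analysis was possible because the lists merge the replicates and no result comes from a test. Leaving out a replicate and a stricter peak threshold could not be run, since the lists hold neither replicates nor scores. The intervals cover counting error only, treat the peaks of a merged list as independent and were set against parts of the same peaks. They served as limits for description and not as tests. Depth limits what was called by an amount the lists do not show.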
